A study of Mus musculus with 3 samples.

Results

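Genes of mitosis and cytokinesis were examined in LLC/luc cells, a Lewis lung carcinoma line of C57BL/6 mice that carries luciferase, and in the sub-lines recovered from bone. The list holds 44 genes named for their roles in division, and it was chosen with earlier results of these data known. It covers cyclins and CDK1 regulators, mitotic kinases, the spindle checkpoint, kinetochore proteins, kinesins, spindle and cytokinesis proteins, and the transcription factors that serve them. A probe was taken when the platform annotation pairs it with a listed symbol, and where a gene had several, the brightest by mean log2 intensity stood for it. By this rule 42 of the 44 genes had a probe, out of 19057 genes with a named probe on the array. Ccnb1 and Mki67 had none, so their expression is not analysed here and they enter only the counts of promoter motifs. The listed genes lie on 18 chromosomes.

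RNA came from 3 cultures, all grown in DMEM with serum. LLC/luc P is the parental line (P). LLC/luc BM 1st was cultured from tibia lesions of mice that had received the parental cells by intracardiac injection, and LLC/luc BM 2nd was cultured in the same way after BM 1st cells had been injected again. Each line is 1 culture on 1 Illumina mouse bead array, so differences have no replicate check and come without p-values, and a culture from a bone lesion can carry cells of the host. The labels give the same cell type, osteotropic Lewis lung carcinoma, to all 3 lines, the parental one included. Of the epithelial markers Krt8 and Krt18 were above background in every line and Cdh1 was just above it (121 in P, 116 in BM 1st and 125 in BM 2nd), while Epcam and Krt19 were not. Of the lung markers Napsa was above background on the P array alone, at 133, and Nkx2-1, Sftpb, Sftpc and Scgb1a1 on no array.

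A cell enters mitosis when cyclin B bound to CDK1 is switched on by CDC25 phosphatases, after which Polo and Aurora kinases build the spindle and the kinetochores attach chromosomes to it. The spindle checkpoint holds the anaphase-promoting complex until every chromosome is attached, and CDC20 then directs that ubiquitin ligase against securin and the cyclins. Kinesins, PRC1, anillin and ECT2 shape the central spindle and the cleavage furrow that divides the cell. Most of these genes are transcribed in late S, G2 and M phase, and their messages are commonly used as a sign of how many cells in a culture are dividing. A pair of short promoter elements is known for this timing: the CHR element, bound by the MuvB complex together with B-MYB or FOXM1, and the CCAAT box bound by NF-Y.

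The stretches below are the 120 bases before the annotated start of Cdc20, Plk1, Cdk1 and Birc5, read from RefSeq in mouse build GRCm38.p6. They are shown because these genes differed between the lines in the same direction and carry different arrangements of the elements. Cdk1 and Birc5 were added after their values were seen. They lie at chr4:118437344-118437463 on the minus strand for Cdc20, chr7:122159315-122159434 on the plus strand for Plk1, chr10:69352913-69353032 on the minus strand for Cdk1, and chr11:117849117-117849236 on the plus strand for Birc5. Each is printed 5′ to 3′ along the gene, and capitals mark a match to TTTGAA or TTTAAA, both forms of the CHR element, or to CCAAT, on either strand.
Cdc20: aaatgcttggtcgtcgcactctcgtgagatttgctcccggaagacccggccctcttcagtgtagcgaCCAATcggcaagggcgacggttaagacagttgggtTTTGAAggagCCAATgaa
Plk1: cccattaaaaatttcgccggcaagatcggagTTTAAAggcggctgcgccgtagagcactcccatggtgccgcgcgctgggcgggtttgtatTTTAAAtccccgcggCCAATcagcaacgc
Cdk1: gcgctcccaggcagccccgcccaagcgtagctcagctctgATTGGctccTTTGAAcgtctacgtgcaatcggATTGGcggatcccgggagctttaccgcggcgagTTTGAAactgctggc
Birc5: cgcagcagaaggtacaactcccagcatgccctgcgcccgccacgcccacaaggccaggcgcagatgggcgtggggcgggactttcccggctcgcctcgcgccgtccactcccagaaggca

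In Cdc20 a TTTGAA begins 18 bases before the start, between CCAAT boxes that begin 53 and 8 bases before it. Plk1 has the TTTAAA form, which reads the same on both strands, at 89 and 29 bases and a CCAAT box at 14 bases. Cdk1 has TTTGAA at 71 and 15 bases and reversed CCAAT boxes at 80 and 48 bases. The Birc5 letters hold none of the 3 motifs.

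Over the whole promoter table, windows of 250 bases before to 50 after the start matched 37 of the 44 genes with 40 windows, since some genes have several. TTTGAA was present in 28 of the 40 windows (70%), against 17.9% of all 32851 windows and 16% of the 21263 windows of protein-coding genes. The TTTAAA form was in 22.5% of the genes' windows and in 13.2% of all windows. CCAAT was in 77.5% of them and in 37.4% of all windows, and TTTGAA and CCAAT stood together in 62.5% against 6.95%. A TTTGAA that began within 50 bases on either side of the start was found in 60% of the genes' windows and in 4.94% of all windows, and a CCAAT that began in the 100 bases before the start in 70% and 19.3%. These shares describe letters in the windows, and overlap with other factors' sites was not examined.

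**Figure D1:**
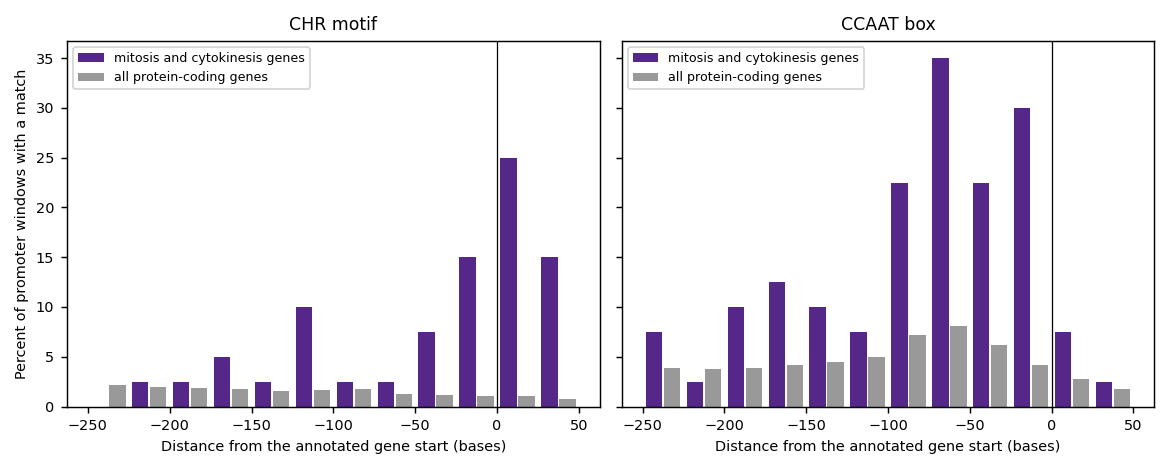
Percent of promoter windows with a match in each bin of 25 bases against the distance of the match from the annotated gene start, for TTTGAA (left, the CHR motif) and CCAAT (right) on either strand, in 40 windows of the mitosis and cytokinesis genes (purple bars) and 21263 windows of protein-coding genes (grey bars). The CHR match peaks just after the start at 25% of the genes' windows, and the CCAAT match peaks between 75 and 50 bases before the start at 35%.

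The deposited values are linear intensities from which no background was subtracted, so a ratio of dim probes is smaller than the difference in RNA. Genes of olfactory and vomeronasal receptors, which these cells should not use, supplied 1504 probes whose 95th percentile served as background: 109 for parental, 110 for BM 1st and 107 for BM 2nd cells. To enter a comparison a gene had to exceed background on either of its arrays. It counted as higher or lower past a log2 ratio of 1 or -1, which is 2-fold. To show the spread available without replicates, the SD of the receptor probes' log2 ratios was 0.12 in each comparison. None of them passed the threshold, but most lie at background, where ratios are compressed, so they do not show the spread of brighter genes. The median SD between probes of the same gene was 0.13 to 0.14 over 3154 genes. Both measures leave out the variation between cultures of a line. Over all genes entered, a robust SD from the median absolute deviation was 0.30 to 0.33, and it includes differences between the lines. In what follows, 3 intensities in a row stand for the P, BM 1st and BM 2nd arrays in that order, and a pair of log2 ratios for BM 1st over P and then BM 2nd over BM 1st.

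Of the 42 genes with a probe, 28 were above background on all 3 arrays, 6 on 1 or 2 arrays and 8 on none. The 8 were Ccnb2, Bub1, Ttk, Nek2, Cenpe, Racgap1, Cks2 and Hmmr, and no statement on them is made from these probes. Among the 34 measured genes 31 had their lowest intensity in BM 1st cells, and 28 ran in the order BM 1st, parental, BM 2nd. Over all 10936 genes measured on at least 1 array, 33.71% were lowest in BM 1st cells and 19.35% ran in that order. The 3 measured genes that were not lowest in BM 1st were Ccna2, Cdc25b and Kif20a.

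Between BM 1st and parental cells 32 of the genes entered, and 22 were lower and 0 higher. Over all 10377 genes entered, 1.79% were lower and 2.04% higher. The median log2 ratio of the 32 genes was -1.35, with a range of -2.52 to 0.19, beside -0.01 over all genes. With every one of the 42 probes counted, also those at background, the median was -1.22. All 22 lower genes were above background on all 3 arrays, and by the brightest probes, with background included, parental cells exceeded BM 1st cells by 2.31-fold for Cdk1 up to 5.73-fold for Pbk. With receptor background subtracted the ratios of genes near background in BM 1st grew, to -3.89 for Ndc80 and -3.21 for Kif4 beside -3.09 for Pbk, so the order of the genes by size is not read. In bulk RNA, fewer dividing cells in a culture and less of these messages per cell cannot be told apart.

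Between BM 2nd and BM 1st cells the direction was the opposite, and this comparison shares the BM 1st array with the one before. Of 33 genes entered, 23 were higher and 0 lower, and all 33 ratios were above 0, beside 48.68% of all genes entered. Over all 10562 genes entered, 3.01% were higher and 1.78% lower. The median log2 ratio was 1.77 (1.36 over all 42 probes), with a range of 0.10 to 2.77, beside -0.01 over all genes. The pattern of lower in BM 1st than in P and higher in BM 2nd than in BM 1st, past the threshold both times, was shown by 22 of the listed genes and by 130 (1.19%) of all measured genes.

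Between BM 2nd and parental cells, which share their arrays with the comparisons above, the genes were close to each other. Of 34 genes entered 0 were higher and 0 lower, where 1.83% of all 10579 genes entered were higher and 1.53% lower. The median log2 ratio was 0.27, with a range of -0.09 to 0.99, beside 0.01 over all genes. The ratio was above 0 for 30 genes (88.24%), beside 50.9% of all genes entered. Cdk1, Cdc25c, Ube2c and Kif20a were below 0, by at most 0.09, and these 4 were above 0 when each array was centred on the median of its own probes above background, a scaling chosen after seeing the data. That scaling raised every log2 ratio by 0.14 in this comparison and by 0.16 between BM 2nd and BM 1st, and lowered those between BM 1st and parental by 0.02. Because the sorted values of the arrays are nearly equal, these shifts depend on the background levels, 109 for P, 110 for BM 1st and 107 for BM 2nd. Over all genes this scaling changed the split between higher and lower from 194 and 162 to 285 and 106 for BM 2nd against parental cells. For BM 2nd against BM 1st cells it changed from 318 and 188 to 465 and 115. The median of the listed genes under this scaling was 0.41 for BM 2nd against parental cells.

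**Figure D2:**
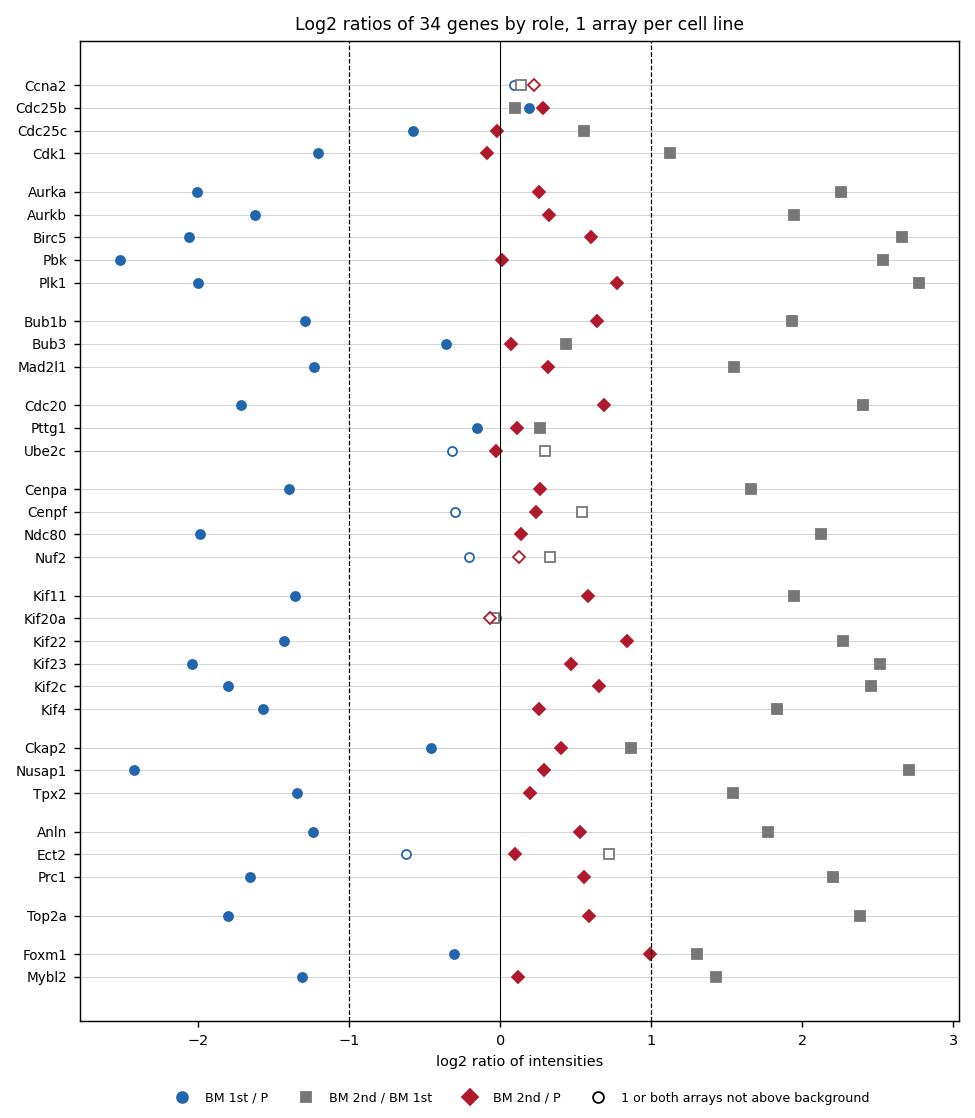
Log2 ratio of intensities (horizontal axis) of the 34 measured genes, grouped by role from top to bottom, for BM 1st over parental (blue circles), BM 2nd over BM 1st (grey squares) and BM 2nd over parental cells (red diamonds), with 1 array per cell line and open symbols where 1 or both arrays were not above background. Dashed lines mark -1 and 1: 22 circles lie left of -1, 23 squares lie right of 1 and every diamond lies between the lines.

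All 5 of the measured mitotic kinases and partners were lower in BM 1st than in P, with a median log2 ratio of -2.00. Plk1, the Polo kinase that acts from centrosome maturation to cytokinesis, had intensities of 1142, 285 and 1953 on the P, BM 1st and BM 2nd arrays. Its log2 ratio was -2.00 between BM 1st and parental cells and 2.77 between BM 2nd and BM 1st. Aurka, the centrosomal Aurora kinase, had 992, 247 and 1183, so the parental and BM 2nd arrays stood together and BM 1st apart. Aurkb, the Aurora kinase of the chromosomal passenger complex, had 953, 309 and 1191, with a log2 ratio of -1.62 between BM 1st and parental cells.

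Birc5, which encodes survivin, the passenger subunit that brings Aurora B to centromeres, had 1538 in P, 369 in BM 1st and 2334 in BM 2nd. Its other probes gave log2 ratios of -2.23 and -2.40 between BM 1st and parental cells beside -2.06 from the brightest, so all of them lay past -2. Pbk, a mitotic kinase that is a substrate of CDK1, had 1418, 247 and 1432. Its log2 ratio was -2.52 between BM 1st and parental cells, while BM 2nd and parental cells differed by 0.01. Nek2, the kinase that separates centrosomes, was not above background on any array.

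Among cyclins, CDK1 and its regulators only Cdk1 passed the threshold by the brightest probe. Cdk1, the kinase that drives entry into mitosis, had intensities of 1672, 724 and 1576 on the P, BM 1st and BM 2nd arrays, with log2 ratios of -1.21 and 1.12. It rests on 1 probe, since its 2 other probes were not above background. Cdc25c, a phosphatase that activates CDK1, had 180, 121 and 178, a log2 ratio of -0.57 between BM 1st and parental cells. Its second probe had 160, 87.5 and 216, again lowest in BM 1st, where it did not exceed background. That probe passed the threshold between BM 2nd and BM 1st, with a log2 ratio of 1.31. The third was above background in BM 1st cells only, at 111.

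Cdc25b, the phosphatase that starts CDK1 activation at the centrosome, was the exception in this group, with 177, 202 and 216 and log2 ratios of 0.19 and 0.10. Ccna2, cyclin A, had 94.9 and 101 in parental and BM 1st cells, not above background, and 111 in BM 2nd cells. Ccnb2, a cyclin B, and Cks2, a small subunit of CDK1 complexes, were not above background at all.

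Of the spindle checkpoint genes Bub1b and Mad2l1 passed the threshold and Bub3 did not. Bub1b encodes BUBR1, part of the complex that inhibits CDC20, and had 1480 in P, 606 in BM 1st and 2312 in BM 2nd, with log2 ratios of -1.29 and 1.93. Mad2l1, which encodes MAD2 of the same complex, had 1859, 793 and 2316, with log2 ratios of -1.23 and 1.55. Second probes of both genes were past the threshold too, at -1.12 for Bub1b and -1.16 for Mad2l1 between BM 1st and parental cells. Bub3, which brings BUB1 and BUBR1 to kinetochores and also serves outside the checkpoint, had 306, 238 and 321, lowest in BM 1st by a log2 ratio of -0.36. Bub1 and Ttk, kinases of the checkpoint, were not above background on any array.

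Cdc20, the activator of the anaphase-promoting complex that the checkpoint restrains, had 1463 in P, 446 in BM 1st and 2358 in BM 2nd. All 4 Cdc20 probes passed the threshold between BM 1st and parental cells, with log2 ratios from -1.71 to -1.28, and the brightest had 2.40 between BM 2nd and BM 1st. Ube2c, the ubiquitin-conjugating enzyme of that complex, had 123, 98.5 and 121 and did not exceed background in BM 1st. The background therefore sets only a bound for Ube2c, at least 1.12-fold lower in BM 1st than in P and at least 1.10-fold higher in BM 2nd than in BM 1st. Pttg1, which encodes securin, had 126, 113 and 136, all near background, with a log2 ratio of -0.16 between BM 1st and parental cells.

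At the centromere, Cenpa, the histone H3 variant that marks it, had 8049 in P, 3048 in BM 1st and 9648 in BM 2nd. Its log2 ratios were -1.40 and 1.66, and its dim second probe had 166, 109 and 177, with the BM 1st value at background. Ndc80, the kinetochore protein that grips microtubules, had 466, 118 and 513, so BM 1st cells were close to background and the log2 ratio was -1.99. Its partner Nuf2 had 101, 87.8 and 110 and was above background in BM 2nd cells only, and Cenpe, a kinetochore motor, on no array. Cenpf, a kinetochore protein that accumulates in G2, had 121, 98.4 and 143, at least 1.11-fold lower in BM 1st than in P and at least 1.30-fold higher in BM 2nd than in BM 1st.

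Of 6 mitotic kinesins 5 were lower in BM 1st cells, with a median log2 ratio of -1.50 over the 6, and the same 5 were higher in BM 2nd than in BM 1st. Kif23, the motor of the central spindle, had 2162 in P, 526 in BM 1st and 2998 in BM 2nd, with log2 ratios of -2.04 and 2.51. Kif2c, which depolymerises microtubules at centromeres, had 478, 137 and 751, with log2 ratios of -1.80 and 2.45. Kif22, the chromosome-arm kinesin, had 939, 347 and 1677, with a log2 ratio of 0.84 between BM 2nd and parental cells.

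Kif11, the motor that pushes spindle poles apart, had 366, 142 and 548, with log2 ratios of -1.36 and 1.94. Kif4, a chromosome-bound kinesin that also works in the central spindle, had 361, 121 and 431, with log2 ratios of -1.57 and 1.83. In both genes the BM 1st array was the one nearest to background. Kif20a, a kinesin of cytokinesis, had 110, 108 and 105, above background in parental cells only and there by less than 1 unit. Probes of Kif23 did not give the same size of difference: the second had 852, 615 and 801 with a log2 ratio of -0.47, and the third had 450, 165 and 692 with -1.45.

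Nusap1, which bundles spindle microtubules around chromosomes, had 1049 in P, 196 in BM 1st and 1281 in BM 2nd. Its log2 ratios were -2.42 and 2.71, but its second probe, near background, had 112, 106 and 117. Tpx2, the activator of Aurora A on the spindle, had 389, 153 and 446, with log2 ratios of -1.34 and 1.54. Ckap2, a microtubule-stabilising spindle protein, had 609, 442 and 805, a log2 ratio of -0.46 that did not pass the threshold, and 0.86 between BM 2nd and BM 1st. BM 1st was the lowest array for these 3 genes, and Hmmr, a spindle assembly protein, was not above background.

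In the cytokinesis group Prc1, the protein that crosslinks microtubules of the central spindle, had 3303 in P, 1050 in BM 1st and 4847 in BM 2nd, with log2 ratios of -1.65 and 2.21. Anln, the furrow scaffold anillin, had 2543, 1076 and 3667, with log2 ratios of -1.24 and 1.77, while its second probe, dim and not above background in BM 1st, had 118, 109 and 130. Ect2, the exchange factor that activates RhoA at the furrow, had 160, 104 and 172. Its BM 1st value did not exceed background, which bounds the ratios at 1.46-fold or more below P and 1.56-fold or more below BM 2nd. Racgap1, its binding partner, was not above background.

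Top2a, the topoisomerase that untangles sister chromatids, had 1734 in P, 498 in BM 1st and 2602 in BM 2nd, with log2 ratios of -1.80 and 2.38. Its dim second probe had 137, 105 and 201, lowest on the same array. Of the transcription factors Mybl2 passed the threshold between BM 1st and parental cells and Foxm1 did not. Mybl2, which encodes B-MYB, had 385, 155 and 417, with log2 ratios of -1.31 and 1.43, though its second probe, just above background, had 110, 111 and 128 and a ratio of 0.01 between BM 1st and parental cells.

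Foxm1 had 209 in P, 169 in BM 1st and 417 in BM 2nd. Its log2 ratio was -0.31 between BM 1st and parental cells, within the threshold, and 1.30 between BM 2nd and BM 1st. Between BM 2nd and parental cells it was 0.99, just inside the threshold, with 0.86 from its second probe (216, 131 and 391). It passed 1 when background was subtracted and, at 1.13, under the centring on each array's own probes.

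**Figure D3:**
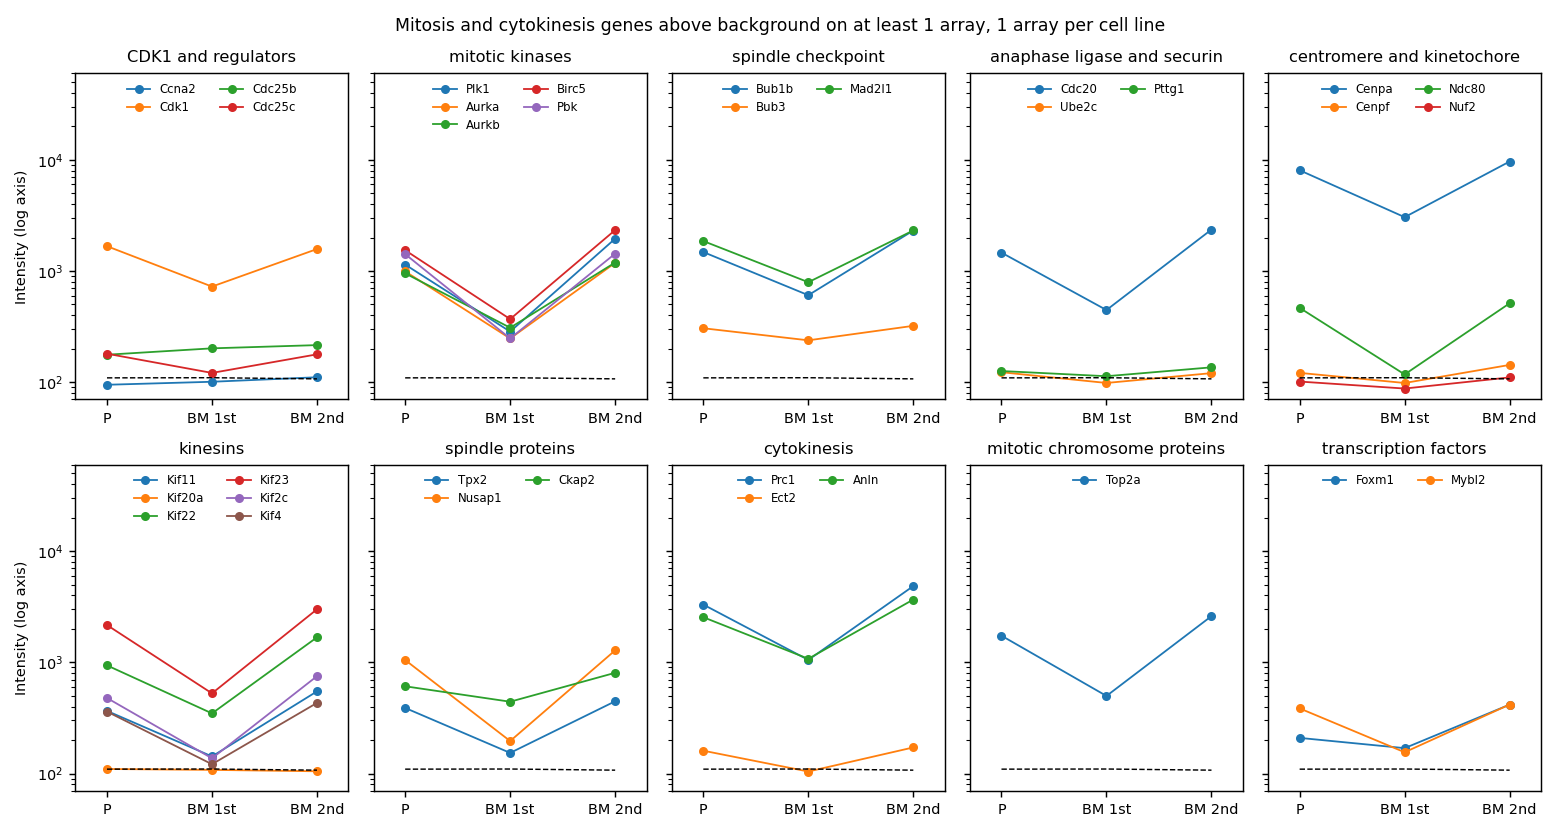
Intensity (log axis) on the parental (P), BM 1st and BM 2nd arrays, 1 array per cell line, for the 34 genes above background on at least 1 array, in 10 panels by role, with the background of each array as a dashed line. Most lines form a V with its low point at BM 1st, as in Plk1 (1142, 285 and 1953), and genes near the dashed line such as Kif20a and Pttg1 are nearly flat.

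Probes other than the brightest were examined as a check on the choice of probe. Between BM 1st and parental cells 20 such probes entered, of which 17 were below 0 and 8 past the threshold, with a median log2 ratio of -0.83. Between BM 2nd and BM 1st cells 22 entered, 21 above 0 and 12 past the threshold, with a median of 1.07. Probes of Anln, Cenpa, Kif23, Kif4, Mybl2, Nusap1 and Top2a lay on different sides of the threshold in the former comparison. Probes of Cdc25c and Mybl2 had opposite signs there. In the latter comparison Cdc25c stood in place of Kif4 among genes with probes on different sides, and only Cdc25c had opposite signs. Other probes of Anln, Cdc25c, Cenpa, Kif4, Nusap1 and Top2a entered against parental cells through the P array alone, so the entry rule nearly fixed their sign. The same holds for probes that entered through BM 2nd alone. Above background on every array and lowest in BM 1st were other probes of Birc5, Bub1b, Cdc20, Foxm1, Kif23 and Mad2l1. Those of Cdc25b and Mybl2 that were above background on every array were not lowest there. Sizes of difference therefore hold for the probe named.

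Other genes of mitosis and cytokinesis were read in the same way from 8 lists with 105 probe-bearing genes outside the 44. These lists too were chosen with earlier results of these data known. Of 86 entered, 29 were lower in BM 1st than in P and 0 higher, beside 1.79% and 2.04% of all genes. There 84 ratios were below 0, beside 50.9% of all genes, and the median was -0.77. Between BM 2nd and BM 1st cells 40 of 88 were higher and 0 lower, beside 3.01% and 1.78% of all genes, with a median of 0.89. Of the 89 measured on any array 80 were lowest in BM 1st cells, beside 33.71% of all measured genes. Of these 89 genes, 26 passed the threshold both down and up, beside 1.19% of all measured genes. Between BM 2nd and parental cells 2 of 89 were higher (2.25%) and 1 lower (1.12%), with a median of 0.22. These shares were near those of all genes, 1.83% and 1.53%.

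The lists differed in depth by ratios with background included, which compresses those of dim genes. Of the passenger complex, shugoshin and separase genes 6 of 7 were lower in BM 1st than in P, with a median of -1.37. Cdca8, the borealin subunit that works with Birc5 and Aurkb, had 1504 in P, 390 in BM 1st and 1667 in BM 2nd. Sgo2a, a protector of centromeric cohesion, had 478, 182 and 869, and Espl1, which encodes separase, had 316, 122 and 452. Among kinetochore and centromere genes 10 of 23 were lower, with a median of -0.85, and Kntc1, of the complex that loads the checkpoint, had 396, 127 and 660. Spindle proteins and mitotic kinesins had 7 of 17 lower and a median of -0.93, among them Troap with 545, 165 and 1015.

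Of the entry and exit regulators 4 of 11 were lower, with a median of -0.76. Cdca2, a phosphatase subunit of mitotic chromosomes, had 566, 147 and 738, and Cdkn3, a phosphatase of cyclin-dependent kinases, had 576, 160 and 872. Cdca3, a factor in the destruction of the kinase WEE1, had 890, 300 and 2058, and was 1 of the 2 genes higher in BM 2nd than in parental cells, with a log2 ratio of 1.21. The other was the condensin subunit Ncapd2, with 438, 246 and 1004 and a ratio just below that of Cdca3. The kinetochore gene Zwint was the 1 gene lower there, at -1.09, with 8362, 6498 and 3917, so it was lowest in BM 2nd and not in BM 1st. The further cytokinesis genes had 2 of 5 lower, with a median of -0.81.

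With background included, some lists had no gene past the threshold between BM 1st and parental cells. With it subtracted, the count lower over all the other mitotic genes rose from 29 to 53 of 86, where 7.73% of all genes were lower. The lists were not counted singly in that way, so a count of 0 here does not show that a list was unchanged. Condensin had 0 of 6 genes past it and a median of -0.65. Between BM 2nd and BM 1st cells, though, 3 of 7 condensin genes were higher, with a median of 0.92, where 3.01% of all genes were higher. The core of the anaphase-promoting complex, listed together with its activator Fzr1, had 0 of 10 and a median of -0.46. Of the activators, Cdc20 was among the listed genes past the threshold. Fzr1, with 2196, 1694 and 3096 and a log2 ratio of -0.37 between BM 1st and parental cells, was not past it. Between BM 2nd and BM 1st cells 2 of the 10 genes on this list were higher, with a median of 0.77. Cohesin and its loader had 0 of 7 and a median of -0.20, and G1 cyclins and kinases 0 of 8 and a median of -0.38, with Ccnd1 at 11558, 7209 and 8427. Between BM 2nd and BM 1st cells both lists had 0 of 8 past the threshold, with medians of 0.33 and 0.35. A list named interphase kinesins, most of them cargo motors, had a median of 0.33 over 11 genes, opposite in sign to that of the mitotic kinesins. That median is the ratio of Kif2a (503, 634 and 571), a relative of Kif2c that is not a cargo motor. Of the 11 ratios 10 were above 0, beside 49.04% of all genes entered. Kif3c was higher in BM 1st (770, 1730 and 934) and Kif5c lower (274, 124 and 282). Of the 12 housekeeping genes with a probe, 11 entered between BM 1st and parental cells, with a median of -0.05 and none past the threshold, and all 12 between BM 2nd and parental cells, with a median of 0.12.

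**Figure D4:**
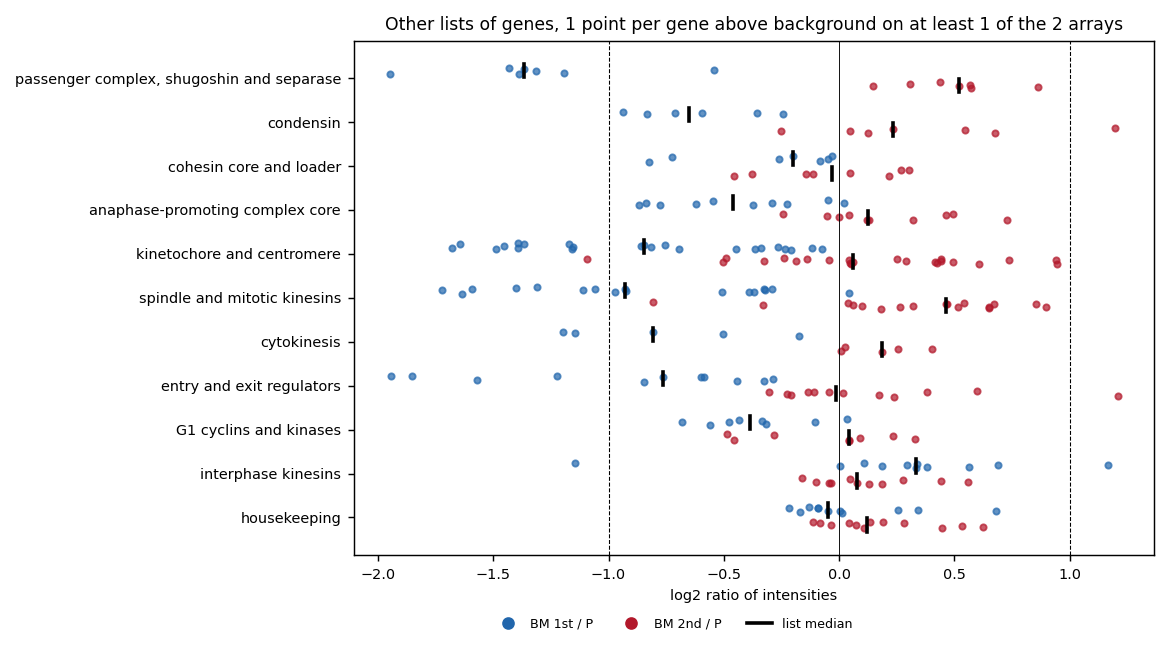
Log2 ratio of intensities (horizontal axis) for 11 lists of genes outside the 44, with 1 point per gene that entered, for BM 1st over parental (blue) and BM 2nd over parental cells (red), and black bars at the list medians. The blue medians run from -1.37 in the passenger complex list to 0.33 in the interphase kinesins, while the red medians lie between -0.03 and 0.52.

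**Figure D5:**
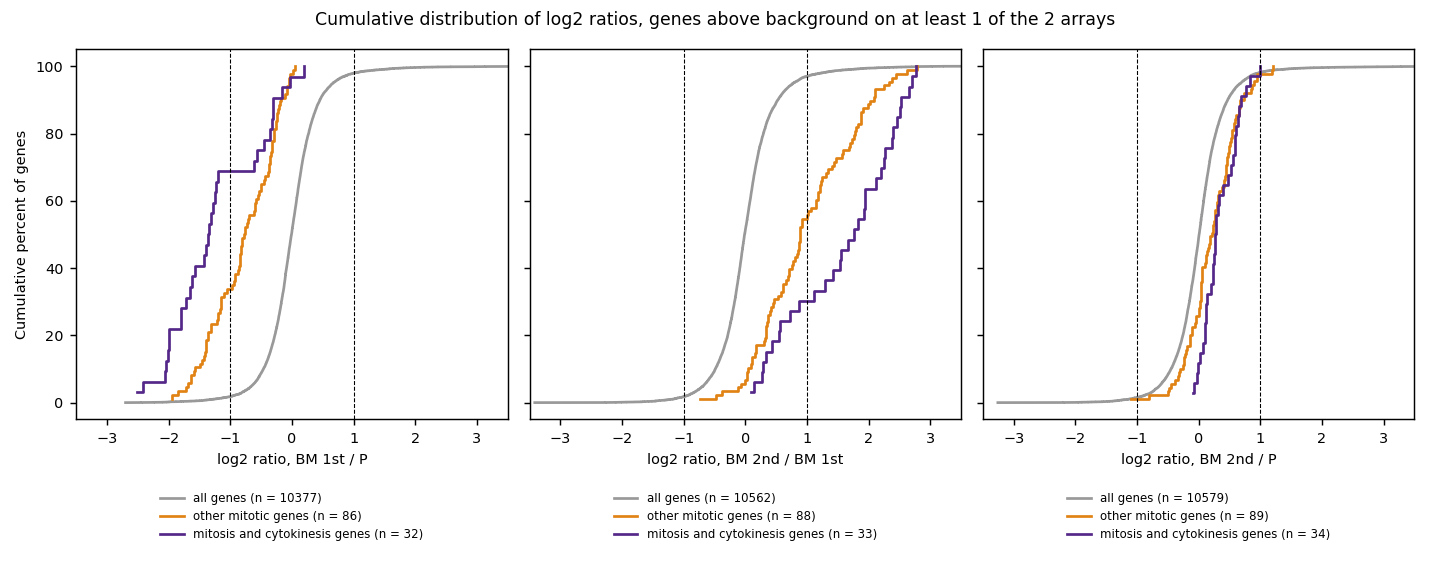
Cumulative percent of genes against the log2 ratio of intensities in each of the 3 comparisons, for all genes that entered (grey), the other mitotic genes (orange) and the mitosis and cytokinesis genes (purple), with dashed lines at -1 and 1. The purple curve lies left of the grey one in BM 1st over parental cells (median -1.35 beside -0.01), right of it in BM 2nd over BM 1st (1.77 beside -0.01), and slightly right of it in BM 2nd over parental cells (0.27 beside 0.01).

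The motifs were also counted within the listed genes. TTTGAA was in 16 of 20 windows (80%) of genes lower in BM 1st than in P and in 7 of 10 (70%) of measured genes that were not, while TTTAAA was in 6 of 20 (30%) and 1 of 10 (10%), either form in 85% and 70%, and CCAAT in 65% and 80%. These differences were not tested, and Ect2, Bub3 and Prc1 have 2 windows each. Outside the 120 bases printed above, Plk1 also has a TTTGAA 30 bases after its start and Birc5 a TTTAAA 220 bases before it. The other mitotic genes had TTTGAA in 43.6% and CCAAT in 58.4% of 101 windows.

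Markers of cells that a bone lesion can hold were read on the same arrays. Of 8 leukocyte markers with a probe, 1 was above background on the P array, 5 on the BM 1st array and 4 on the BM 2nd array, and their summed intensity was 788, 2236 and 1168, highest where the mitotic genes were lowest. Lyz2 made most of that difference, with 79.5, 1078 and 365, followed by Laptm5 with 90.1, 367 and 184 and Fcer1g with 95.4, 255 and 128. Ptprc, the pan-leukocyte marker, had 102, 111 and 104, barely above background in BM 1st cells, and Itgam, Tyrobp and Cd3e were above background on no array. Of 8 markers of fibroblasts and marrow stroma 5 were above background in each line, and their sum was 2990, 10104 and 16037. Dcn (1027, 6259 and 6174) and Lum (198, 1742 and 6133) carried most of that difference, and Pdgfra had 258, 851 and 1068. The 5 were not the same genes in each line. Col1a2, with 110, 107 and 104, was above background in P only. Col1a1, with 96.0, 120 and 412, was above it in BM 1st and BM 2nd only. Pdgfrb and Thy1 were above background on no array. Col3a1, with 1107, 833 and 1946, was lowest in BM 1st like the mitotic genes. The 3 erythroid markers were above background on no array, and osteoblast and endothelial markers summed to between 307 and 512 on every array. Among the osteoblast markers Sp7 had 103, 101 and 197, above background in BM 2nd only, there at least 1.79-fold higher than in BM 1st. The part of these markers' cells in the result was not tested.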

How the data were processed

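Total RNA of LLC/luc P, BM 1st and BM 2nd cells was measured on Illumina mouse bead arrays, 1 per line. The authors deposited a linear intensity per probe, 45281 on each array. GenomeStudio 2011.1 is named in the submitters' processing notes, with settings not given in the sources used here. Sorted from low to high, the arrays' values never differed by more than 0.274, as after quantile normalization, and none was below 60.2, so background was still included.

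Probe names followed the platform annotation, and old symbols were updated by RefSeq (GRCm38.p6): 34885 probes had 1 gene, 18 had several and 10378 had none. Above background lay 9661, 9549 and 10019 genes in parental, BM 1st and BM 2nd cells. Where 1 array was not above background, "at least" marks a bound, computed from the brighter value and whichever was larger of the dimmer value and its array's background. With 1 array per line no statistical test between lines was run, and precision is limited by the number of arrays. The counting code was run on simulated arrays with known changes larger than the threshold. That run checks the code only and says nothing on the variation between cultures. Python 3.11.15, numpy 2.4.6, pandas 2.3.3 and matplotlib 3.10.9 were used.

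The genes, gene lists and rules were chosen with earlier results of these data known. By rule, intensities were given for the brightest gene and the extreme ratios of each role and for genes whose probes lay on different sides of the threshold, and up to 3 genes with the largest ratio of each further list could be named. Zwint was named after its values were seen. Promoters were planned for Ccnb1, Cdc20 and Plk1, and Ccnb1 was not shown because it had no named probe. Promoter windows of Aurkb, Foxm1, Pbk, Cdc25c, Kif20a, Ccna2 and Tpx2 were not used here. Alternatives varied the background filter and its level, background subtraction, a pseudocount, the centring, the probe and the threshold.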

Additional observations from a re-analysis of the deposited data

Results flagged for a closer look

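The arrays gave opposite signs for the BM 1st and BM 2nd lines against the same parental array. The median log2 ratio of the mitosis and cytokinesis genes was -1.35 for BM 1st and 0.27 for BM 2nd against parental cells. That of the other mitotic genes was -0.77 for BM 1st and 0.22 for BM 2nd. Cdca3 passed the threshold in both directions, with log2 ratios of -1.57 for BM 1st and 1.21 for BM 2nd. With 1 array per line the difference was not tested, and both ratios share the parental array.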

How the results depend on the processing

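No paired analysis was possible because each line has 1 array, and for the same reason no replicate could be left out. Of 180 alternative counts and medians 138 stayed within the spread or within 1.5 times the count, and 42 moved. Only a median past the threshold could be called reversed, and counts could not. Such medians were those of the mitosis and cytokinesis genes for BM 1st against parental cells and BM 2nd against BM 1st. Neither of them reversed. The centring on each array's own probes was chosen after seeing the data. For most moves the cause was not tested.

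For the mitosis and cytokinesis genes the BM 1st against parental median was -1.22 without a background filter, -1.85 with receptor background subtracted, -1.21 with a pseudocount of 50 and -1.20 from the mean of probes. With the second-brightest probe, which only 14 genes have above background, 4 were lower and the median was -0.66, where 0.946% of all genes were lower. For BM 2nd against BM 1st the median was 1.36 without a filter, 1.94 with both arrays above background and 2.34 with background subtracted. It was 1.34 from the mean of probes and 1.93 with own-probe centring. The second-brightest probe gave 7 higher and a median of 0.97, where 1.96% of all genes were higher. For BM 2nd against parental cells 1 gene of 34, Foxm1, was higher with background subtracted (median 0.44), where 8.23% of all genes were. It was also the 1 gene higher with own-probe centring (median 0.41), where 2.69% of all genes were. At a threshold of 1.5-fold 8 of 34 were higher, which 6.76% of all genes passed upward.

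For the other mitotic genes the BM 1st against parental median was -0.55 without a filter, -0.60 with the pseudocount and -0.63 from the mean of probes. With background subtracted it was -1.38, and 53 of 86 were lower, where 7.73% of all genes were. The second-brightest probe gave -0.47, with 4 of 32 lower beside 0.946% of all genes. At 1.5-fold 52 were lower, where 6.37% of all genes were. For BM 2nd against BM 1st the median was 1.62 with background subtracted, 0.74 with the pseudocount and 1.04 with own-probe centring. The second-brightest probe gave 0.55, with 10 of 36 higher and 1 lower beside 1.96% and 1.25% of all genes. At 1.5-fold 1 was lower, beside 7.11% of all genes. For BM 2nd against parental cells, 9 of 89 were higher and 3 lower with background subtracted, where 8.23% and 7.1% of all genes were. From the mean of probes 1 was higher (1.37% of all genes), and with the second-brightest probe 1 of 37 (0.888%). At 1.5-fold 15 were higher and 2 lower (6.76% and 6.13% of all genes). With own-probe centring 6 were higher and 0 lower (median 0.36), beside 2.69% and 1% of all genes.

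Among 537 alternative values of single genes' ratios, 1 changed sign from a ratio past the threshold, that of Mybl2 between BM 1st and parental cells, at 0.0137 from its second-brightest probe. Another 7 changed sign from ratios within it, all between BM 2nd and parental cells: those of Cdk1, Cdc25c, Kif20a and Ube2c with own-probe centring, Cdc25c also from other probes, and Kif23 from its second probe. Genes near background carry compressed ratios, and 8 of the 42 could not be read at all.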
